A study of Mus musculus with 7 samples.

Results

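The vomeronasal type 2 receptors were taken as the protein-coding genes of the RefSeq table of GRCm38.p6 (the build also called mm10) whose symbol begins with Vmn2r. There were 124 such genes among 21887 protein-coding genes on the chromosomes of the domain list, and 123 of them could be placed against that list. The record of Vmn2r122 gives positions 3536 to 11935 of chromosome 4, before the first domain of that chromosome at 3018415, as do those of 26 other protein-coding genes, and it was not placed. The rule uses the symbol and no position, but the family was picked with earlier results of these data known.

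The series profiled iMEF, lines of mouse embryonic fibroblasts, by CUT&RUN, in which an antibody on chromatin brings in a nuclease that releases the DNA around its target. Of 7 libraries, 2 were made with an antibody to Lamin B1 (a filament protein of the nuclear lamina), 2 with IgG as the control, 1 with each of 2 H3K9me2 antibodies (ab1220 and 39041) and 1 with an H3K14ac antibody. The lines came from a single mouse colony and were derived independently, per the series text, which calls the Lamin B1 and IgG pairs biological replicates, and the labels name no treatment, time or genotype. All values here come from the authors' merged list of 1437 lamin-associated domains (LADs, stretches of chromatin at the nuclear lamina), whose name carries the letters WT. The list gives positions with no signal and no values of single libraries. Depth is therefore unknown, no position has a replicate error, and no test between groups was possible.

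Vmn2r genes encode family C G protein-coupled receptors with a large extracellular ligand-binding part. They are known from sensory neurons of the basal layer of the vomeronasal organ, where a neuron uses very few of them, they signal through the G protein subunit encoded by Gnao1 and the channel encoded by Trpc2, and they detect peptide and protein pheromones. The genes arose by repeated local duplication and stand in tandem clusters, and fibroblasts are not known to use them.

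The sequences shown first are the 250 bases before the annotated start sites of the genes on which the account turns, from the RefSeq promoter table of GRCm38.p6, written 5′ to 3′ on the strand of the gene. Capitals mark CpG dinucleotides. Vmn2r83 has the midpoint that lies outside the domains, Vmn2r29 (with 2 annotated starts) and Vmn2r30 stand on either side of a gap between 2 domains, Vmn2r50 lies deepest, Vmn2r116 is the receptor of the peptide ESP1, and Vmn2r129 and Vmn2r121 are lone genes on different chromosomes.
Vmn2r83 (chr10:79468708-79468957, plus strand): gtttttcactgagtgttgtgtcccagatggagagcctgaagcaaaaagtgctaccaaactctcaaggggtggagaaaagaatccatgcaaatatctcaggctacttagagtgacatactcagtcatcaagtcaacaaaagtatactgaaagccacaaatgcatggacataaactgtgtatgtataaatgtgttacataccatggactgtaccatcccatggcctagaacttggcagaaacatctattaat
Vmn2r29, outer start (chr7:7278290-7278539, minus strand): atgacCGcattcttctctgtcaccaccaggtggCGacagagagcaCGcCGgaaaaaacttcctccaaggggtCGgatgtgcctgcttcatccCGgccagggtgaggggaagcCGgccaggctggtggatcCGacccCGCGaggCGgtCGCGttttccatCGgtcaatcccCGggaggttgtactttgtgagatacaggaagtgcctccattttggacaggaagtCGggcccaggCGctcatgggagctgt
Vmn2r29, inner start (chr7:7247329-7247578, minus strand): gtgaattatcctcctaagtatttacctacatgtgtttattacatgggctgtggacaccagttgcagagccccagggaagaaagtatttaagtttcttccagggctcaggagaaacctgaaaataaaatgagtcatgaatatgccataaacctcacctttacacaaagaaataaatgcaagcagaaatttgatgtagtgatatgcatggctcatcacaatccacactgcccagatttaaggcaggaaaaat
Vmn2r30 (chr7:7337494-7337743, minus strand): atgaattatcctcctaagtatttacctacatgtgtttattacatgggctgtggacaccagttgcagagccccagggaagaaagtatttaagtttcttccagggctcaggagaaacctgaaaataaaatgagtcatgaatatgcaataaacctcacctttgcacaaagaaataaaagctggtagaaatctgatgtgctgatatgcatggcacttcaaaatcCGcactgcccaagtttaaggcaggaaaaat
Vmn2r50 (chr7:10053179-10053428, minus strand): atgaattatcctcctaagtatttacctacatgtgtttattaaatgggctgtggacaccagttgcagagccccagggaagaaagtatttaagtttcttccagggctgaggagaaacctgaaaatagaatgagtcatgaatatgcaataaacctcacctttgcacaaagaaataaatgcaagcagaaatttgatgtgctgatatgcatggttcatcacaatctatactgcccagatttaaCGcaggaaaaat
Vmn2r116 (chr17:23384553-23384802, plus strand): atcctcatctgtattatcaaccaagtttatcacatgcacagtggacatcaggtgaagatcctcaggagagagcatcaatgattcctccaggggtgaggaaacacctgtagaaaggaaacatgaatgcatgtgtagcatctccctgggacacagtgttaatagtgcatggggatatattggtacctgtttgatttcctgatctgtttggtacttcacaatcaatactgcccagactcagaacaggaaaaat
Vmn2r129 (chr4:156330853-156331102, plus strand): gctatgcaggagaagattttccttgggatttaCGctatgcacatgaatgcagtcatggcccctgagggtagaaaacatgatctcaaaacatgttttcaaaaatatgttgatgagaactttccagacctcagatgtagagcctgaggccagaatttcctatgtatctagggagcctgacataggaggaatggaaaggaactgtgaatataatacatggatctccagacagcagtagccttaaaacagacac
Vmn2r121 (chrX:124135911-124136160, minus strand): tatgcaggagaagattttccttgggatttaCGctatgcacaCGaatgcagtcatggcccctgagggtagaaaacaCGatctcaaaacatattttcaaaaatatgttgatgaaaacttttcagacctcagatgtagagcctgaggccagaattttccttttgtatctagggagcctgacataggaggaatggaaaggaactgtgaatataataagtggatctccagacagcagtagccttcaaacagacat

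Nearly all Vmn2r genes lay in LADs. Of the 123 placed genes, 122 (99.2%) had their midpoint in a LAD, and 120 lay wholly inside one. Over all 21130 placed protein-coding genes the share was 24.6% by midpoint and 22.5% by the whole gene. The remaining 3 Vmn2r genes were each cut by a border, and none lay wholly outside. By start site, which the promoter table gave for 117 of the genes, 116 were in a LAD, beside 24.6% of 16987 protein-coding genes with a listed start.

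The count was not carried by a single chromosome. Members lay on 9 chromosomes, with 52 on chromosome 7, 32 on 17, 11 on 5, 9 on 6, 8 on 10, 7 on 3, 2 on 14 and 1 each on 4 and X. On 8 of these chromosomes every placed member was in a LAD, and on chromosome 10 it was 7 of 8. Among the other protein-coding genes of the same chromosomes, the share in LADs ran from 15.7% on chromosome 17 to 36.9% on chromosome 7.

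With neighbouring midpoints at most 1 Mb apart counted as a cluster, there were 12 clusters with 2 to 24 members, which held 117 genes, and 6 lone genes. In 11 of the 12 clusters every member was in a LAD. The clusters spanned 13.4 Mb from the first start to the last end, of which 98.1% was LAD, and 9 of the 12 spans were covered in full. The median share over clusters was 100% and the lowest was 94.0%. These are shares of bases, and the 24.6% above is a share of genes, so it is not their background. The share of all bases in LADs was not computed. LADs with a member came to 31.5 Mb and the 1418 others to 1297 Mb. A single LAD reached into 10 of the 12 clusters, so most clusters shared their domain from end to end.

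**Figure D1:**
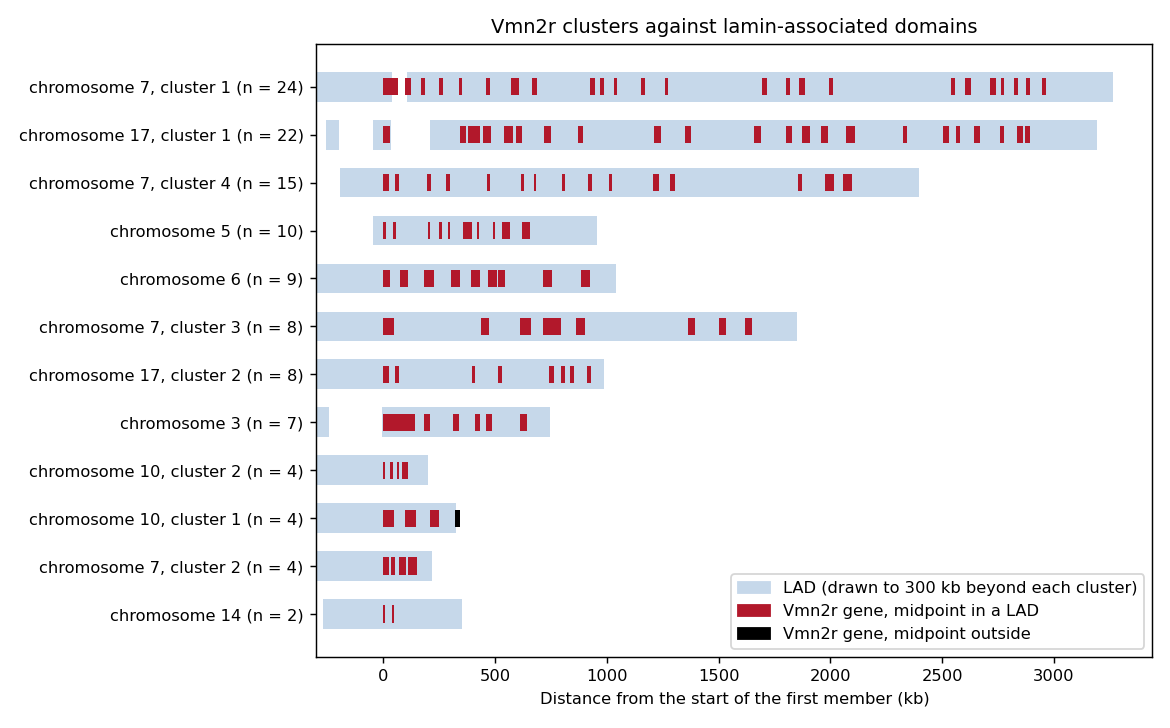
Each row is a cluster of Vmn2r genes, with its number of members, drawn from the start of its first member (x axis, kb). Shaded bars are LADs, shown to 300 kb beyond the cluster, and coloured blocks are the genes; the black block is Vmn2r83, the placed member whose midpoint lay outside, and the 2 white breaks within spans are the gaps of 65.0 and 175 kb.

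The 7 genes Vmn2r1 to Vmn2r7 form a clade of their own, known for being co-expressed with other Vmn2r receptors across basal vomeronasal neurons. They made up the cluster of chromosome 3 (64078172 to 64719602), and all 7 lay wholly within a LAD of 752.5 kb (64070908 to 64823405). That LAD held no other protein-coding gene. It began 7.26 kb before the first member and ended 104 kb after the last. Both neighbouring genes lay outside LADs, Gmps (a nucleotide synthesis enzyme) by 78.3 kb and Kcnab1 (a potassium channel subunit) by 340 kb, measured from their midpoints. Of the 15 clusters and lone genes with a placed neighbour on each side, it was the 1 with both neighbours outside. The lone genes Vmn2r18 and Vmn2r129 had a placed neighbour on the lower side alone (Stard13 and Samd11), which was outside in both cases. The records of Vmn2r1 and Vmn2r2 overlap, so these 2 genes are not separate positions. The midpoints ran from 72.4 kb inside the border for Vmn2r2 to 331 kb for Vmn2r4.

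Chromosome 7 carried the largest set. Its first cluster (7212996 to 10176286) ran from Vmn2r29 to Vmn2r52 with 24 members, and 97.8% of the span was LAD. All 22 members with a known strand pointed the same way. A LAD of 5482 kb (7317605 to 12800086) held 23 of them and also the 4 genes of the second cluster, Vmn2r53 to Vmn2r56, which lay 66.8 kb or more from its upper border. This domain, with 27 members, held more Vmn2r genes than any other, and 19 of its 57 protein-coding genes were receptors of the type 1 family. Vmn2r50 lay deepest of all members, 2728 kb from the nearest border.

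The gap in that cluster measured 65.0 kb (7252605 to 7317604) and held another kind of gene. Clcn4, which encodes a chloride and proton exchanger of intracellular membranes, lay wholly in the gap with its midpoint 26.0 kb from a border. Vmn2r29 reached into the gap from below with 60.7% of its length in LAD, and Vmn2r30 from above with 78.7%. Their midpoints were 6.96 and 7.25 kb inside. These distances are a few times the 2.5 kb step in which the list draws its borders, and they depend on the gap. With LADs less than 250 kb apart joined, the midpoints lay 2126 and 2205 kb inside.

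Vmn2r29 had its 2 annotated starts on either side of the border. The outer one, at 7278289, lay 25.7 kb outside the LAD, and the 250 bases before it held 17 CpG dinucleotides at a GC content of 60.8%. The inner one, at 7247328, lay 5.28 kb inside, and its 250 bases held 0 CpG dinucleotides at 39.2% GC. The inner sequence was 96.8% identical to that of Vmn2r35, a member of the same cluster, whereas the closest member sequence to the outer one reached 51.7%. For each of the other 116 members the closest sequence was at least 54.0% identical (Vmn2r18 with Vmn2r8). The table does not say which start belongs to the receptor's coding transcript. The start of Vmn2r30 lay 19.9 kb inside the next LAD, with 1 CpG in its 250 bases.

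On chromosome 10 the first cluster, Vmn2r80 to Vmn2r83 (79148816 to 79492154), ended at a border. Vmn2r80, Vmn2r81 and Vmn2r82 lay 304, 205 and 99.2 kb inside a LAD of 842.5 kb (78633332 to 79475828). Vmn2r83 followed with 29.6% of its length in this LAD and its midpoint 4.73 kb beyond the border, a call that turned with borders 10 kb farther out (5.27 kb inside). Its start site was inside by 6.87 kb, so the part outside was the end of the gene. The next gene, Plpp2 (a lipid phosphate phosphatase), lay 54.3 kb outside. The second cluster of this chromosome, Vmn2r84 to Vmn2r87, lay wholly in a LAD of 1615 kb in which 58 of 65 protein-coding genes were olfactory receptors.

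Chromosome 17 had the other interrupted cluster. Its first cluster (17703941 to 20596259) ran from Vmn2r90 to Vmn2r110 with 22 members, all in LADs, and 94.0% of the span was LAD. A domain of 3047 kb (17914032 to 20961522) held 21 of them. Vmn2r90 stood apart in a LAD of 80.0 kb (17659033 to 17739032) in which it was the single protein-coding gene, and its midpoint was 20.0 kb inside. Between the 2 LADs lay a gap of 175 kb (17739033 to 17914031) with 4 protein-coding genes, Spaca6 (a sperm membrane protein), Has1 (a hyaluronan synthase) and the formyl peptide receptors Fpr1 and Fpr2, known from immune cells. The formyl peptide receptors of vomeronasal neurons lay on the other side of that border. Fpr3, Fpr-rs3, Fpr-rs4, Fpr-rs6 and Fpr-rs7 were all in the large LAD, from 57.0 to 848 kb inside.

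**Figure D2:**
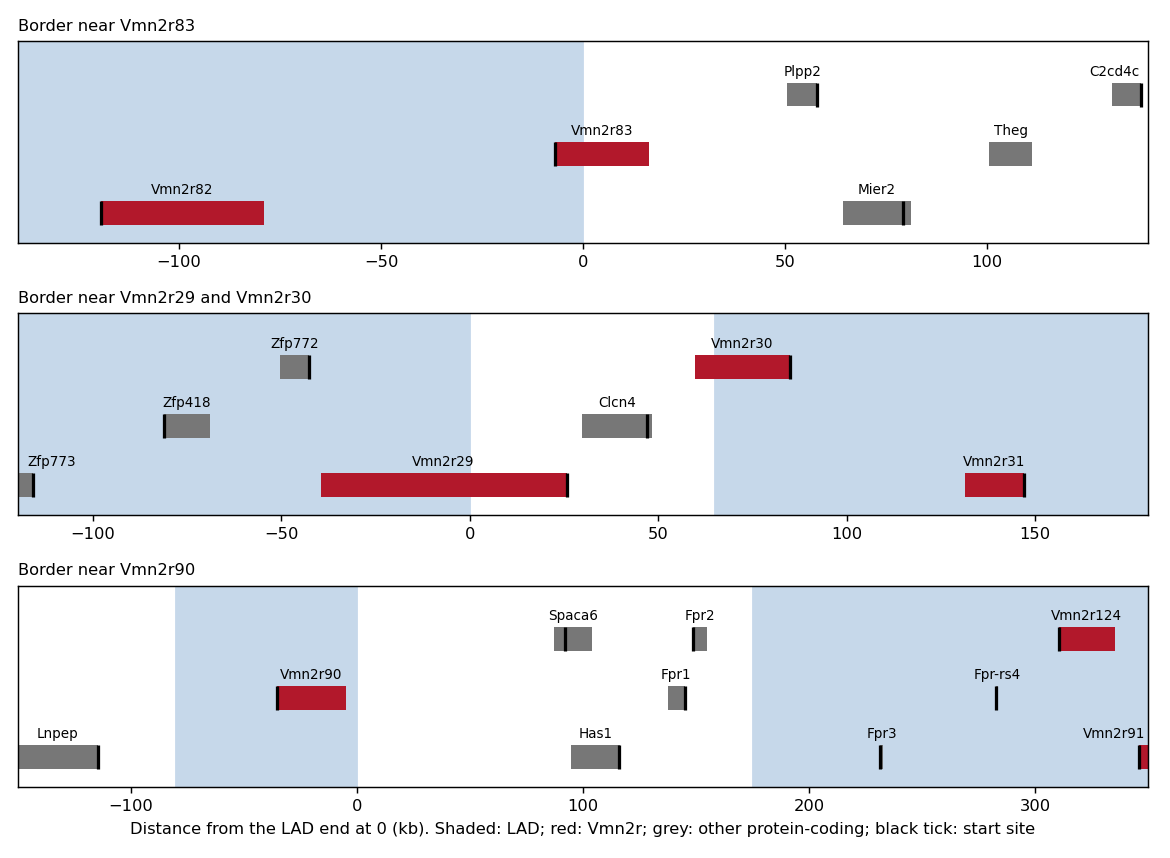
Gene bodies (blocks) and LADs (shading) around the 3 borders next to Vmn2r83, Vmn2r29 and Vmn2r90, with distance from the LAD end at 0 on the x axis (kb); Vmn2r genes are red, other protein-coding genes grey, and black ticks mark the outermost listed start site. The start of Vmn2r83 lies inside and that of Vmn2r29 outside, and Clcn4, Spaca6, Has1, Fpr1 and Fpr2 lie in the gaps.

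The second cluster of chromosome 17 (22547941 to 23479597) held 8 genes from Vmn2r111 to Vmn2r117, among them Vmn2r-ps130, which RefSeq lists as protein-coding under a pseudogene symbol. All lay in a LAD of 1947 kb (21586521 to 23534013) together with 14 zinc finger genes. Vmn2r116 (23384803 to 23401864) lay 141 kb inside, and Vmn2r117, the last member, 64.4 kb inside. The next gene, the zinc finger gene Zfp213, was 26.5 kb outside the border.

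The other clusters each lay wholly within a single LAD. The 10 genes Vmn2r8 to Vmn2r17 on chromosome 5 shared a LAD of 1312 kb, which began 47.7 kb before the first of them. On chromosome 6 the 9 genes Vmn2r19 to Vmn2r27 were in a LAD of 1442 kb, with Vmn2r22 deepest at 719 kb. Vmn2r57 to Vmn2r126, the 8 genes of the third cluster of chromosome 7, shared 3625 kb with 6 zinc finger genes. The 15 genes Vmn2r65 to Vmn2r79 of the fourth cluster shared 4375 kb with 17 olfactory receptors and with Grm5, a metabotropic glutamate receptor of the same receptor family C. On chromosome 14, Vmn2r88 and Vmn2r89 lay in 662.5 kb of LAD, within the record of Gm7247, which spans both.

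All 6 lone genes were in LADs, but in domains of very different size. Vmn2r118 and Vmn2r120 on chromosome 17 lay 303 and 178 kb inside LADs of 2192 and 1625 kb. Vmn2r28 lay 367 kb inside a LAD of 992.5 kb on chromosome 7, between Vmn1r59 and Vmn1r60. Vmn2r18 was the single protein-coding gene of a LAD of 260.0 kb on chromosome 5, and Vmn2r129 that of a LAD of 90.0 kb on chromosome 4. Vmn2r121 on X lay 14.8 kb inside a LAD of 357.5 kb.

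The 122 genes were spread over 19 LADs. The 3 with the most members, on chromosomes 7 (27 and 15 genes) and 17 (21 genes), held 63 of them. The 19 LADs had lengths from 80.0 to 5482 kb with a median of 1312 kb, and the 1418 LADs without a member had a median of 434 kb. Protein-coding genes stood at 11.8 per Mb over the 19 LADs and at 3.73 per Mb over the others. The 19 LADs were picked for holding a gene, which none of the others had to do, so both contrasts are descriptions. In 4 of the 19 LADs the Vmn2r genes were the sole protein-coding genes.

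Depth inside the domains varied widely among members. The median distance from a midpoint in a LAD to the closest border was 478 kb, with quartiles of 205 and 1013 kb and a range from 6.96 to 2728 kb. At 500 kb or more were 57 of the 122 (46.7%), beside 36.5% of the 5207 protein-coding genes in LADs, whose median depth was 308 kb. The Vmn1r genes in LADs had a median of 410 kb and the olfactory receptors 582 kb. The depth of Vmn2r genes thus lay between those of the 2 larger families. The 27 bitter taste receptor genes (Tas2r) in LADs had a median of 935 kb, and the 125 Vmn2r pseudogenes in LADs 665 kb. Among midpoints in LADs, 5 lay within 50 kb of a border, those of Vmn2r29, Vmn2r30, Vmn2r121, Vmn2r90 and Vmn2r129. That of Vmn2r83 lay 4.73 kb beyond one. Genes of a cluster share a domain, so their depths are not independent.

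**Figure D3:**
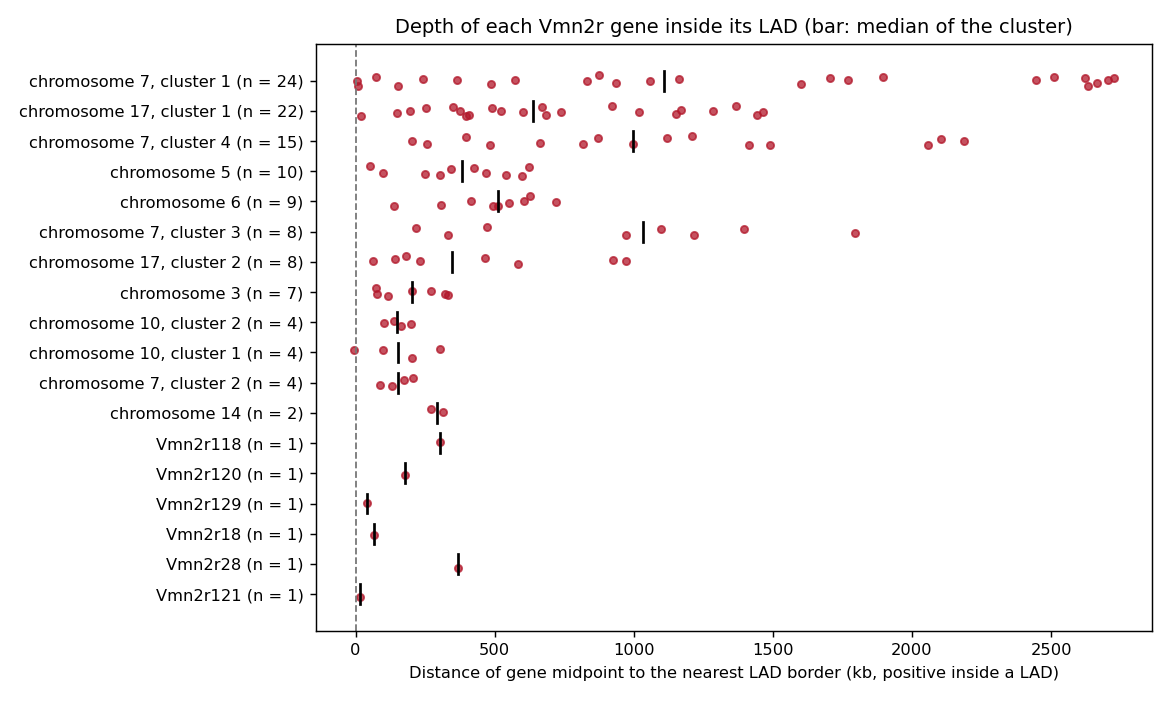
Distance of each Vmn2r midpoint to the nearest LAD border (x axis, kb, positive inside), by cluster or lone gene; each dot is a gene and the bar is the median. Vmn2r83 is the dot left of 0, and the first cluster of chromosome 7 reaches farthest, to 2728 kb.

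Other genes within the cluster spans were mostly in LADs too. Of 41 protein-coding genes without a Vmn2r symbol in these spans, 36 (87.8%) were in a LAD, including all 15 olfactory receptors, all 7 zinc finger genes and both Vmn1r genes. The 5 outside were Clcn4, Spaca6, Has1, Fpr1 and Fpr2, the genes of the 2 gaps. The spans are 98.1% LAD, so other genes in them lie in LADs largely by position. Of the 33 nearest other genes on either side of the clusters and lone genes, 25 were in LADs and 8 were outside. They lay at a median of 50.4 kb from the outer member, but 4932411N23Rik, which is outside, was 2677 kb from Vmn2r121, and the record of Gm7247 contains the cluster of chromosome 14. Without these 2 genes, 24 of 31 were in LADs, and 6 of the 18 places had a neighbour outside (7 with them). Over all placed protein-coding genes the share in LADs was 24.6%. Neighbours before the first or beyond the last domain of a chromosome were not placed and are not counted here.

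Vmn2r pseudogenes, copies that RefSeq lists as no longer coding, gave further positions, 81 of them within the same cluster spans. Of 148 in the table, 146 could be placed, and 125 (85.6%) had their midpoint in a LAD, beside 52.3% of all 10345 placed pseudogenes. All 81 pseudogenes within the spans of the protein-coding clusters were in LADs, which these share by position. Of the 65 elsewhere, 44 were, and 13 of these were in a LAD that holds a protein-coding member. On chromosomes without a placed protein-coding member, 24 of 41 pseudogenes were in a LAD. The 21 outside included 12 of the 20 pseudogenes on Y, where no protein-coding member stands, and 9 of 126 on the other chromosomes. Vmn2r-ps3 and Vmn2r-ps13 lay 16.6 and 75.9 kb outside the LAD of Vmn2r1 to Vmn2r7, on opposite sides of it.

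The related chemosensory families were set beside these counts, with no test of the differences. Vmn1r genes, the type 1 vomeronasal receptors of apical neurons, had 204 of 228 placed genes (89.5%) in LADs. Olfactory receptors (Olfr) had 981 of 1109 (88.5%), bitter taste receptors (Tas2r) 27 of 35 (77.1%) and trace amine-associated receptors (Taar) 0 of 15. The Taar genes stand in a single cluster on 1 chromosome, so that count amounts to 1 position.

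**Figure D4:**
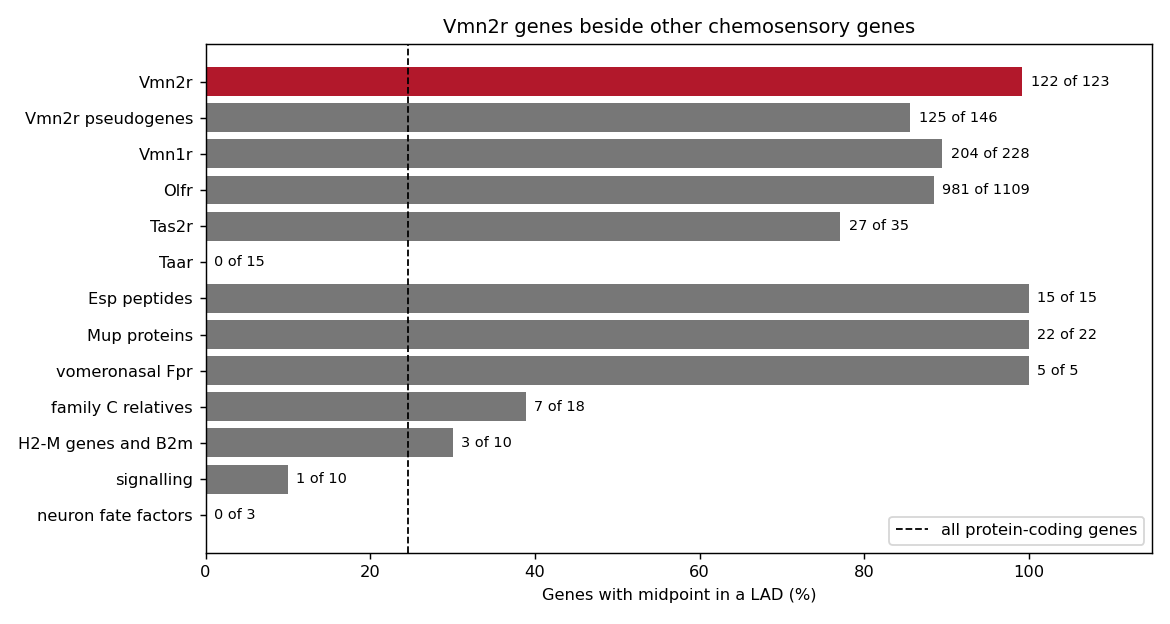
Share of genes with their midpoint in a LAD (x axis, %), for Vmn2r genes (red) and other groups (grey), with the count beside each bar; the dashed line is the share over all placed protein-coding genes, 24.6%. Vmn2r, Esp, Mup and vomeronasal Fpr genes reach 99.2% or more.

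The genes of the pathway were placed in the same way, without a test between roles, beside the 24.6% in LADs over all placed protein-coding genes. The ligand genes lay in LADs. All 15 Esp genes, which encode peptides secreted by exocrine glands, were in 2 LADs of chromosome 17 (37248971 to 39801462 and 39896463 to 40851459), with Esp1 122 kb inside. The 22 Mup genes, which encode the major urinary proteins, were divided equally between 2 LADs of chromosome 4 (59940734 to 60888230 and 61128231 to 62195726). Neither pair of LADs held a Vmn2r gene. The genes of each family are clustered, so these counts rest on few positions.

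Of the 10 placed genes of signal transduction, 1 was in a LAD (10%, beside 24.6% over all genes). It was Kcnj6 (a potassium channel subunit), 34.5 kb inside. Gnao1 lay 91.9 kb outside, Trpc2 440 kb, Gnai2 (the G protein subunit of apical neurons) 461 kb and Gng8 (a G protein gamma subunit) 194 kb. Gnb2, Kcnn3, Ano2, Plcb2 and Itpr3 were farther out, from 771 to 3556 kb. The transcription factor genes Bcl11b, Tfap2e and Meis2, which act in the fate of vomeronasal neurons, lay 67.4, 662 and 200 kb outside. Several of these genes are also used in other tissues.

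The H2-M genes are nonclassical major histocompatibility genes transcribed in Vmn2r neurons. With B2m, 3 of 10 (30%) were in a LAD, near the 24.6% over all genes. H2-M1, H2-M9 and H2-M11 lay 70.9, 101 and 79.7 kb inside a LAD of 272.5 kb on chromosome 17 (36468974 to 36741472). The 6 H2-M10 genes stood on both sides of that LAD, at 8.35 kb outside for H2-M10.4 and 33.1 to 184 kb for the others, and B2m was 292 kb outside a LAD. Of the 18 placed relatives of family C, 7 (38.9%) were in LADs. They included Casr, the calcium-sensing receptor gene, at 261 kb inside, Gprc6a at 703 kb and Grm5 at 1263 kb. Tas1r1, Tas1r2 and Tas1r3, which encode the subunits of the sweet and umami taste receptors, were outside by 490, 2509 and 427 kb.

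Sequence before the start sites was poor in CpG, as it was in the other large receptor families. In the 250 bases upstream, Vmn2r genes had a median of 1 CpG dinucleotide and a GC content of 38.8% (quartiles 36.4% and 40.8%), and 42 of 117 (35.9%) had none. All 16987 protein-coding genes with a start had a median of 9 and 55.2% GC, and 7.54% of them had no CpG. The median was also 1 in Vmn1r genes (GC 34.6%, 26.2% with none) and in olfactory receptors (GC 34.0%, 44.4% with none). Genes outside the receptor families (Vmn and Olfr) had a median of 3 where the start lay in a LAD and of 13 where it lay outside. Among the 116 Vmn2r genes with the outermost listed start in a LAD, the highest count was 4, in Vmn2r1, Vmn2r80 and Vmn2r20, and GC ran from 26.8% to 44.4%. The outer start of Vmn2r29, with 17, was the 1 start outside a LAD. Beside it, the outermost start of Clcn4 had 22 and lay 18.1 kb outside, and that of Plpp2, the gene after Vmn2r83, had 14.

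**Figure D5:**
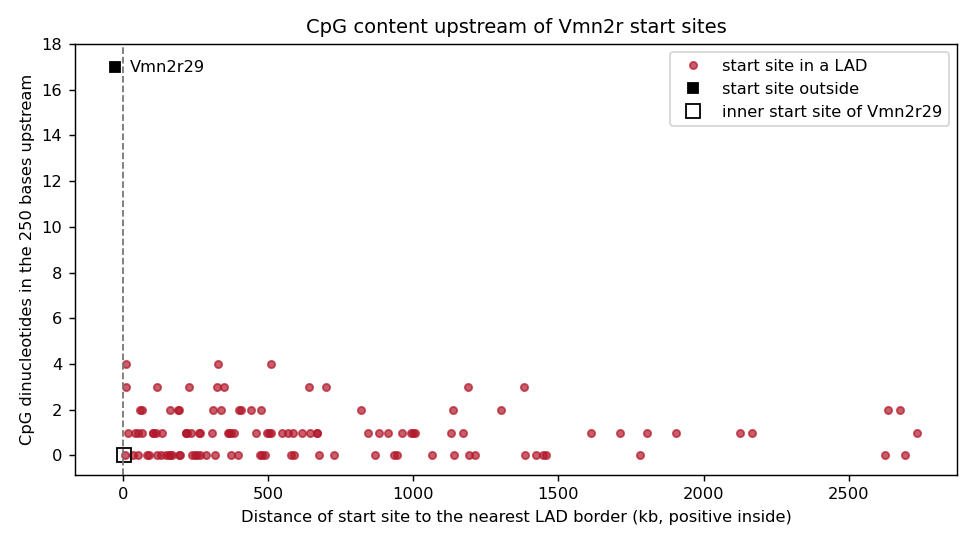
CpG dinucleotides in the 250 bases before the outermost listed start site of 117 Vmn2r genes (y axis) against the distance of that start to the nearest LAD border (x axis, kb, positive inside). The filled square is the outer start of Vmn2r29, with 17, and the open square its inner start, with 0; the 116 dots in LADs have at most 4.

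Upstream sequences were shared between members. Global alignment of the 250 bases gave a median identity of 77.6% over 703 pairs within a cluster and 52.1% over 6083 pairs from different places. By cluster, medians ran from 50.3% on chromosome 14 (1 pair) and 51.5% on chromosome 3 to 95.6% in the second cluster of chromosome 17. The first clusters of chromosomes 7 and 17 gave 231 pairs each, with medians of 83.7% and 65.5%. For 101 of the 117 members the closest sequence was in the same cluster. Among the pairs, 7 were identical, such as Vmn2r31 with Vmn2r33 and Vmn2r41 with Vmn2r40, and 34 members had a sequence at least 95% identical to that of another. How reads that fit several such copies were placed is not given in the sources used here.

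Some pairs with much the same upstream sequence stood far apart. The sequences of Vmn2r30 and Vmn2r50 were 92.8% identical, and their midpoints lay 7.25 and 2728 kb from a border. This contrast rests on the gap beside Vmn2r30, whose midpoint lay 2205 kb inside with LADs less than 250 kb apart joined. The depth of Vmn2r50 was not recomputed with that joining. Vmn2r129 on chromosome 4 and Vmn2r121 on X were 94.4% identical and stood in separate LADs of 90.0 and 357.5 kb. Vmn2r116 was 98.8% identical to Vmn2r112 of its cluster. In the cluster of Vmn2r1 to Vmn2r7 the median identity was 51.5%, while Vmn2r6 and Vmn2r7 were 99.2% identical and Vmn2r4 and Vmn2r6 94.1%. Of the 6 starts listed there, 5 lay inside the gene record rather than at its end, by 0.009 kb in Vmn2r3 to 33.4 kb in Vmn2r2, which sets the bases compared. Over all members this held for 9.

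Short motifs were scored as present or absent in the same 250 bases, on either strand. CANNTG, the core letters of an E-box, was present in 114 of 117 Vmn2r sequences (97.4%) and in 62.8% of all protein-coding ones. The share was 81.1% in Vmn1r genes, 70.3% in olfactory receptors and 69.2% in other genes with the start in a LAD. TATAAA was present in 21.4% beside 12.5%, and TAATTA, the core of many homeodomain sites, in 16.2% beside 4.55%. By group, TATAAA was present in 39.3% of Vmn1r and of olfactory receptor sequences and in 18.2% of other genes with the start in a LAD, and TAATTA in 7.28%, 18.1% and 5.49% of these groups. The Ebf motif, also scored, was in 0 of 117 and in 0.789% of all. Members with near-identical sequences repeat the same match, so these shares do not count independent cases.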

How the data were processed

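CUT&RUN libraries of iMEF fibroblasts were aligned with Bowtie2 to mm10, per the submitters' processing notes. The aligner's version, how domains were called and at what threshold, and whether IgG or spike-in DNA was used are not given in the sources used here. The authors deposited 1 merged list of 1437 domains in BED format. Its values are start and end positions in base pairs, and the deposited score column is 0 in all 1437 lines. Its name says merged, which was read as pooling the Lamin B1 libraries.

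Borders move in steps of 2.5 kb: all 1437 lengths were multiples of it to within 125 bp. Positions are counted from 1. Gene records came from the RefSeq table of GRCm38.p6 and start sites and sequences from its promoter table, which matched 117 of the 124 Vmn2r genes. Where several starts are listed, the outermost in the gene was used. Of 21887 protein-coding genes, 21130 had their midpoint between the first and last domain of a chromosome and were placed; 757 were not. A gene was counted in a LAD if its midpoint was. Clusters joined neighbouring midpoints at most 1 Mb apart. Sequences were aligned globally with biopython 1.88 (match 1, mismatch -1, gap opening -2, extension -0.5). The placement functions were tested on simulated data. No protein sequences were used, so the planned comparison of proteins was not run.

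The members, gene lists and cluster rule were chosen with earlier results of these data known. Named genes were those outside or cut by a border, the first, last and deepest of clusters, neighbours, Vmn2r1 to Vmn2r7, Vmn2r116 and pathway genes in LADs. Pathway genes outside LADs, genes in the gaps, pseudogenes and members named for their sequence were chosen beyond this rule, after their values were seen. The nearest neighbours are named where a border or a host domain turns on them, and genes of large families are given by family. Not every gene that the rule names is reported here. Ano1 and Gprc5c of the pathway lists lay beyond the last domain of their chromosomes and were not placed. Counts are descriptions without a test. Alternatives moved the placement point, the borders, the minimum length, the joining distance and the cluster distance.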

Additional observations from a re-analysis of the deposited data

How the results depend on the processing

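The share of Vmn2r genes in LADs was recomputed under 13 other settings and ran from 95.1% to 100%. The covered share of cluster spans ran from 97.7% to 99.88% under 5, and clusters with every member in a LAD, 11 of 12, were 13 of 14 at 500 kb between members, 11 of 12 at 2 Mb, and 10 of 12 by the whole gene or with LADs of at least 500 kb. The first of these shares was set beside an exact binomial interval (95% level, 95.6% to 99.98%) that treats genes of a cluster as independent and is too narrow. Outside it were 4 settings: the share of Vmn2r genes in LADs, 99.2%, was 100% with any overlap, 100% with borders moved outward by 50 kb and 100% by 10 kb, and 95.1% with borders moved inward by 50 kb. Under these 4 the number of genes in LADs was 117 to 123, and other protein-coding genes stood between 20.9% and 29.0%. With Vmn2r83 outside, the interval had to end below 100%, so every setting that gained this single gene fell outside it. Which genes were outside depended on the setting. Vmn2r90 and Vmn2r129 were lost with LADs of at least 100 kb, and Vmn2r18 and Vmn2r121 as well at 500 kb. The midpoint of Vmn2r83 went from -4.73 kb (outside) to 45.3 kb inside with borders outward by 50 kb and to 5.27 kb by 10 kb. That of Vmn2r29 went from 6.96 kb inside to -43.0 kb and -3.04 kb with borders inward by 50 and 10 kb, and that of Vmn2r30 from 7.25 kb to -42.75 kb and -2.75 kb. Joining LADs within 250 kb put these last 2 genes 2126 and 2205 kb inside, and borders outward by 50 kb, which close the 65.0 kb gap, 1018 and 1097 kb. The shifts of 10 kb and the count without the largest cluster (99.0%) were chosen after seeing the data. No paired analysis was possible because the list merges the libraries and has no values per replicate, which also prevented leaving out either Lamin B1 library. Depth is unknown, so how firmly each border was called cannot be given.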
